A study of Mus musculus with 2 samples.

Results

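The regions described here are 1752 dense clusters of distal open chromatin in the library labelled replicate 1. They were chosen by a rule on that library's own peaks. Peaks more than 1 kb from every annotated transcript start were taken as distal and joined wherever the gap between neighbours was at most 12.5 kb. Groups of 5 or more peaks were kept and ranked by the sum of their deposited peak signals. Of 85367 peaks, 52339 were distal and fell into 26766 groups of any size. The 1752 clusters held 13460 of the distal peaks, or 25.7% (95% Wilson interval 25.3 to 26.1, counting error only).

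The study measured DNase-seq, in which the nuclease DNase I cuts chromatin that is not wrapped tightly around nucleosomes, in thymus of male mice aged 36 days. The strain was B6CASTF1/J, a first-generation hybrid of C57BL/6J and CAST/EiJ. There is 1 group of 2 libraries, with no treatment and no other genotype, and both libraries carry the same donor identifier. The files hold peaks, footprints and false discovery rates but no read counts, so the depth behind each value is unknown, no test between groups was possible, and spread over peaks or clusters is not spread over animals.

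The label was checked against marker genes before the results. In the library labelled replicate 1 a promoter peak, meaning one at most 1 kb from a start of the gene, lay at 4 of 19 T cell receptor and coreceptor genes, against 18 of 19 in the library labelled replicate 2. The background over all 21951 protein-coding genes was 63.1% in replicate 1 and 60.0% in replicate 2. Cd3d, Cd3e, Cd3g, Cd4, Cd8a and Cd8b1, which define T cells and their thymic precursors, all lacked a promoter peak there. Of 30 genes of pancreatic acinar enzymes, 27 had a promoter peak in the library labelled replicate 1 and 2 had one in replicate 2. The contrast was weaker for 10 acinar transcription factor genes, with 10 in replicate 1 and 7 in replicate 2. Not every T lineage gene differed: 17 of 18 T lineage transcription factor genes had a promoter peak in replicate 1 and 18 of 18 in replicate 2. Of 16 thymocyte development genes, 7 had one in replicate 1 and 15 in replicate 2. For 16 thymic epithelium genes the counts were 10 and 9. The library labelled replicate 1 went against its thymus label at the receptor and enzyme markers, and the 2 libraries are treated below as separate libraries and never averaged. In bulk tissue, fewer cells of a type and less open chromatin per cell cannot be told apart.

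Distal open regions often hold enhancers, short stretches of DNA where transcription factors bind and raise the activity of a gene that may lie far away. Genes that define a cell type tend to be surrounded by many such regions. Pancreatic acinar cells make and store digestive enzymes, and in them the factors PTF1A, RBPJL, NR5A2 and MIST1 (gene Bhlha15) drive enzyme genes. PTF1A binds E-box sequences as part of a complex with RBPJL or RBPJ, whose own site lies beside the E-box.

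Peaks from 7 clusters are printed to show what the clusters are made of. The first 5 come from clusters at acinar genes and had neither a peak nor a listed false discovery rate interval in replicate 2. The last 2 come from clusters of high signal that both libraries had. Each is the strongest peak of at most 300 bases outside exons in the best-ranked cluster of its gene, read from GRCm38.p6 (mm10) on the plus strand, 5′ to 3′. Capitals mark bases inside deposited footprints of replicate 1, which are short stretches that the enzyme cut less than their surroundings. The choice of genes was made with their values in view.
Cela2a: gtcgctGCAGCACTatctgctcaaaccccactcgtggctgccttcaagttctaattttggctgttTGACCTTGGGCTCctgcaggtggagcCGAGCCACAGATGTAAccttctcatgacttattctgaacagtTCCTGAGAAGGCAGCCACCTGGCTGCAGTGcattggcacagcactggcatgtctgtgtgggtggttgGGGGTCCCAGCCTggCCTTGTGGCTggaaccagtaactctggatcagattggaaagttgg
Pnliprp1: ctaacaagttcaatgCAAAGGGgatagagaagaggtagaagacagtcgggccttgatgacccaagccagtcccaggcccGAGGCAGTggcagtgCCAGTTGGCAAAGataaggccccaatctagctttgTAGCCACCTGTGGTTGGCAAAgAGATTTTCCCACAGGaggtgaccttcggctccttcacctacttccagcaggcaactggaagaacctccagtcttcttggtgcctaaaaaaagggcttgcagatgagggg
Pnlip: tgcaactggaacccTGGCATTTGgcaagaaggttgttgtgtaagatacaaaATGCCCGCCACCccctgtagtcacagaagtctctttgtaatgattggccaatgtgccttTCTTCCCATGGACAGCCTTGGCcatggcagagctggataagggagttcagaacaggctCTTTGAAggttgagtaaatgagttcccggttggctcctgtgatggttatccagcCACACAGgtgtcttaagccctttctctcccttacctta
Rbpjl: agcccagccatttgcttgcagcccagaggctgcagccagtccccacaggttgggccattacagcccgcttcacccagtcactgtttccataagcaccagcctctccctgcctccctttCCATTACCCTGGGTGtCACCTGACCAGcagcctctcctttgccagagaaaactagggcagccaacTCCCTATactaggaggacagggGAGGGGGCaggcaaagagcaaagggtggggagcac
Ptf1a: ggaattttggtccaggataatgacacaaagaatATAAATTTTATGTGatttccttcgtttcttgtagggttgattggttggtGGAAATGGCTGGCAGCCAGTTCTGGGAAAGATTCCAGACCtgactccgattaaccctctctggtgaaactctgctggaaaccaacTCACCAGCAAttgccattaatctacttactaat
Ptma: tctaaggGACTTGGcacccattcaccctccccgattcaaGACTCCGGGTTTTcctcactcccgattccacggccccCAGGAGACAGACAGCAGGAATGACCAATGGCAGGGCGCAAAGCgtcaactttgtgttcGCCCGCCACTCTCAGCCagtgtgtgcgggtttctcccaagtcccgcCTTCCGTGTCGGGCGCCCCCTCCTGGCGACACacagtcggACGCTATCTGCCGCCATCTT
Nr1d1: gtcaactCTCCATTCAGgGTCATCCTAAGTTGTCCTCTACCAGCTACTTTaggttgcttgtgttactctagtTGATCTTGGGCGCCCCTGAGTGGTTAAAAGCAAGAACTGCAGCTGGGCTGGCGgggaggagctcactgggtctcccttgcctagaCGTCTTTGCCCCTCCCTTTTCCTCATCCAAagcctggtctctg

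The Cela2a peak (chr4:141828261-141828520) had a signal of 6.27 and was the strongest of its cluster. It lay outside the Cela2a body, 2.10 kb from the nearest transcript start. By the annotation it was in an intron, since the body of Ctrc runs across it. It held 2 matches to the NR5A sequence CAAGGTCA or CAAGGCCA and 2 to the E-box CAGGTG, counted on both strands. Both NR5A matches and 1 of the E-box matches touched a footprint. The Pnliprp1 peak (chr19:58752621-58752880, intergenic) had a signal of 4.51. It held an E-box CAGGTG and an RBPJ match GTGGGAA with 17 bases between them, both touching a footprint. A RUNX match TGTGGTT overlapped that E-box, and a GATA match AGATAA touched another footprint.

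The Pnlip peak (chr19:58666981-58667240, in an intron, signal 3.88) held 1 E-box CAGGTG that touched a footprint. So did the Rbpjl peak (chr2:164437021-164437260, signal 4.23). That peak lay past the end of the annotated Rbpjl body, in an intron of another gene. Its cluster also spanned Matn4 and Sdc4. The Ptf1a peak (chr2:19455941-19456140, intergenic, signal 3.54) held no E-box match and 1 STAT match TTCNNNGAA. The Ptma peak (chr1:86525281-86525520, intergenic) had a signal of 13.1 in replicate 1, and the replicate 2 peak there had a signal of 21.8. It was the only 1 of the 7 with a CTCF match, AGGTGGCAG or AGGGGGCGC, and that match touched a footprint. The Nr1d1 peak (chr11:98786961-98787160, intergenic) had a signal of 8.67 in replicate 1 and 11.6 in replicate 2, with 1 E-box CAGCTG. A match describes the letters and is not a shown binding site.

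The clusters were mostly small, with a few very large ones. They held 5 to 55 peaks (median 6), spanned 1.23 to 100.1 kb (median 17.2 kb) and covered 33.7 Mb together. Their summed signal ran from 1.40 to 106.5 with a median of 11.1. The strongest peak made up a median of 30.8% of the sum. Just inside the limit, 633 clusters had exactly 5 peaks and a median sum of 8.03, and just outside it, 1214 groups of 4 peaks had a median sum of 5.96. Summed signal and number of peaks did not choose the same regions: the group of 4 peaks at Lars2 summed to 77.7, of which 1 peak gave 74.1.

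**Figure D1:**
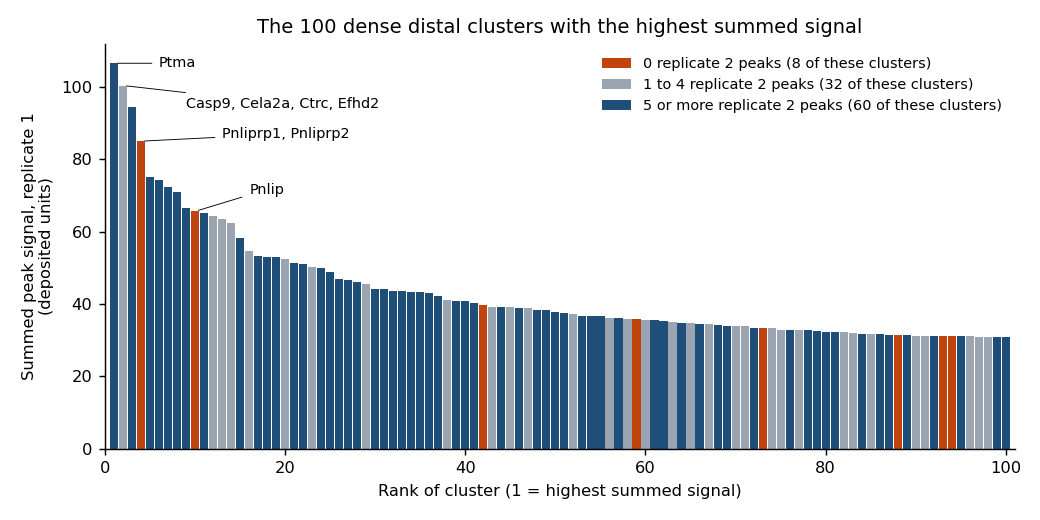
The 100 clusters with the highest summed signal in replicate 1 (vertical axis, deposited units) in order of rank, coloured by the number of replicate 2 peaks in the same span. The sum falls from 106.5 at Ptma, 60 of the 100 clusters hold 5 or more replicate 2 peaks, and 8 hold none, among them the clusters at Pnliprp1 with Pnliprp2 and at Pnlip.

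The highest sum belonged to the cluster at Ptma (prothymosin alpha, a small acidic nuclear protein), at chr1:86469521-86532640. Its 25 distal peaks summed to 106.5, and replicate 2 had 17 peaks in the span. The second cluster, at chr4:141810193-141867800, covered Cela2a and Ctrc, which encode an elastase and chymotrypsin C, with Casp9 and Efhd2. Its 31 peaks summed to 100.4 and replicate 2 had 3 peaks there. The third, at Thra (thyroid hormone receptor alpha) and Nr1d1 (the circadian repressor REV-ERB alpha), had 30 peaks, a sum of 94.4 and 12 replicate 2 peaks. So the 3 highest sums were alike in size while replicate 2 had many peaks in 2 of the spans and few in 1.

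Ranks 4, 10 and 13 were also at enzyme genes. The cluster at Pnliprp1 and Pnliprp2, which encode relatives of pancreatic lipase, lay at chr19:58726695-58785360 and had the most peaks of all, 55, with a sum of 85.0. Replicate 2 had 0 peaks there on its shorter list and 1 on its longer list. The cluster at Pnlip, which encodes pancreatic lipase, lay at chr19:58643661-58685912 with 43 peaks, a sum of 65.6 and 0 replicate 2 peaks on either list. The cluster at Cela3a and Cela3b, further elastase genes, lay at chr4:137393264-137443900 with 33 peaks, a sum of 63.5 and 1 replicate 2 peak. Within these 3 clusters no single peak stood out: the strongest gave 5.30% of the sum at Pnliprp1, 5.92% at Pnlip and 8.24% at Cela3a. Peaks were counted and summed as listed, without merging. In the Pnliprp1 cluster 2 peaks had midpoints 17.176 and 17.206 kb from its first base, so a site can be counted more than once.

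The cluster of rank 6, at Igf2bp3 (an RNA-binding protein), was the opposite case. Replicate 2 had 16 peaks in its span, 10 of them distal, and 8 of its 9 replicate 1 peaks were overlapped. These 9 peaks summed to 74.3, and 1 peak of signal 67.7 gave 91.1% of that sum. The sequence of that peak had 2 further copies in the genome at 90% identity or more over at least 80% of its length. It was the only 1 of the 20 strongest peaks of the 20 highest clusters to have one. Whether reads from these copies were placed there was not tested.

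The other clusters among the 20 highest lay at genes of many functions. Fmod (a collagen-binding matrix protein) with Btg2 (an antiproliferative factor) had 46 peaks, a sum of 75.1 and 22 replicate 2 peaks. Alg12 (a mannosyltransferase of N-glycosylation) and Creld2 (a protein of the endoplasmic reticulum) with the kinase gene Pim3 had 39 peaks, a sum of 72.3 and 10 replicate 2 peaks. Rap1gap with Alpl (alkaline phosphatase) had 38 peaks and 5 replicate 2 peaks, and Myrf with Dagla had 26 and 6. These 4 clusters were of like sum, and the replicate 2 peaks in them ran from 5 to 22.

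Lower sums, between 52.5 and 65.2, were found at 9 further places. Cdc42ep1 with Lgals2 had 18 peaks and 8 replicate 2 peaks. Cdk17 with Elk3, an ETS family factor, had 24 and 4. Near Tob1 (an antiproliferative factor), 32.8 kb from its nearest transcript start, a cluster had 26 and 4. Tent5c, a cytoplasmic poly(A) polymerase gene, had 39 peaks against 4 in replicate 2, and Samd4b with Pak4 had 29 against 3. Nfix (a transcription factor) with Dand5 had 18 against 6. More replicate 2 peaks lay at Acvr1b (an activin receptor) with Grasp, 28 against 21, at Irf2bpl, 24 against 21, and at Kdm6b (a histone H3 lysine demethylase) with Dnah2, 14 against 14. These replicate 2 counts include peaks near transcript starts: distal ones numbered 14, 14 and 13 at these 3 places.

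**Figure D2:**
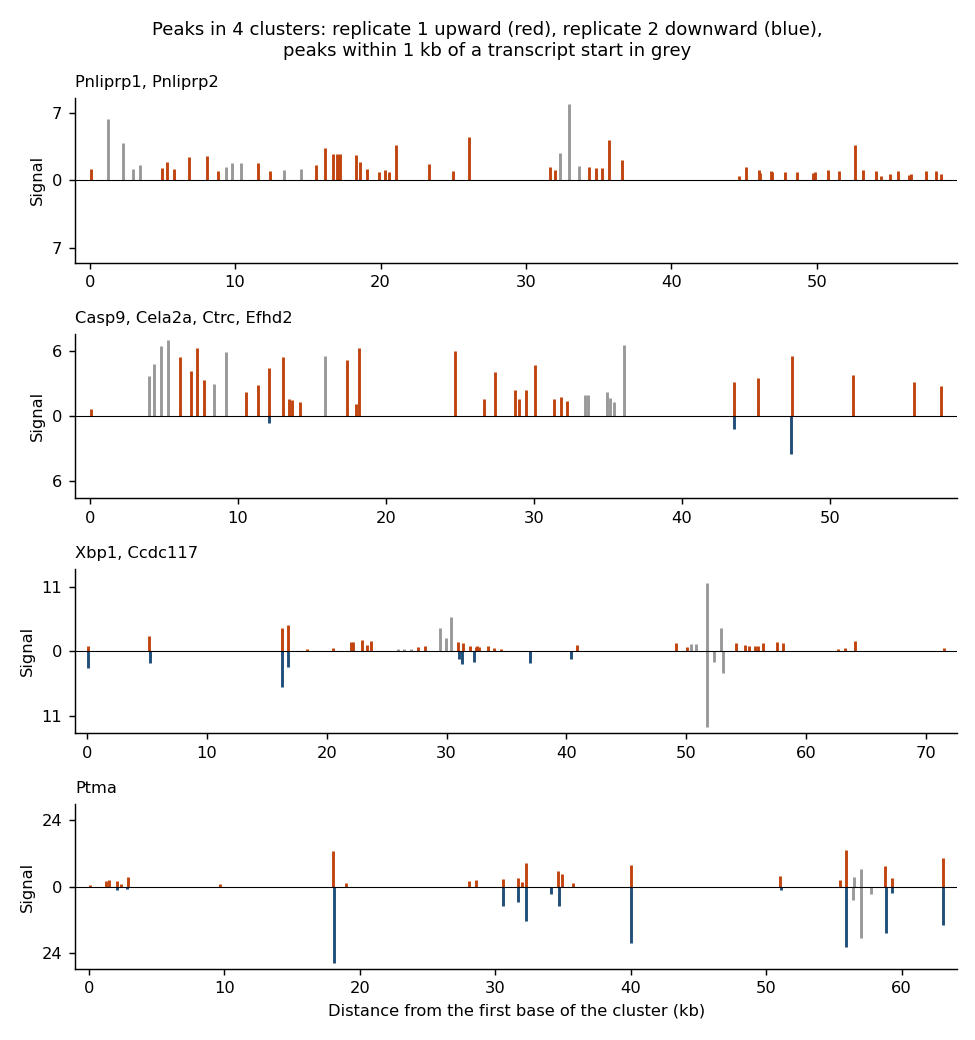
Peaks along 4 clusters, as distance in kb from the first base of the cluster (horizontal) and deposited signal (vertical), with replicate 1 upward in red, replicate 2 downward in blue and peaks within 1 kb of a transcript start in grey. The cluster at Pnliprp1 and Pnliprp2 has no replicate 2 peak, that at Cela2a has 3, that at Xbp1 has 12 and that at Ptma has 17.

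Replicate 2 was not used by the rule, so its peaks in these spans were measured independently of it. It had at least 1 peak in 1321 of the 1752 clusters, or 75.4% (95% Wilson interval 73.3 to 77.4), and none in 431. The median was 2 replicate 2 peaks per cluster and the highest number was 28. It had 5 or more in 363 clusters and at least as many as replicate 1's distal peaks in 169. Peaks of replicate 2 near transcript starts are counted here; with distal peaks alone, 226 clusters had 5 or more.

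Peak by peak, 3056 of the 13460 cluster peaks were overlapped by a replicate 2 peak by at least 1 bp, or 22.7% (22.0 to 23.4). The background over all distal peaks of replicate 1 was 32.3%, and the share was 35.7% (35.2 to 36.1) among the 38879 distal peaks outside the clusters. The intervals do not overlap, but they cover counting only, and neighbouring peaks are not independent. Every peak was overlapped in 22 clusters and none in 534. The replicate 2 table of false discovery rates, which lists weaker signal than the peak list, had an interval in 29.6% of cluster peaks and 44.2% of the other distal peaks, against a background of 40.4%. Of the 10404 cluster peaks with no replicate 2 peak, 8.92% had such an interval.

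Cluster peaks were not the weaker ones. They had a median signal of 1.30, against 0.988 in the other distal peaks. When all distal peaks were divided into 5 equal classes of signal, 5.06% of cluster peaks and 13.4% of other distal peaks were overlapped in the weakest class. In the strongest class these shares were 44.6% and 66.8%. Cluster peaks had the lower share in all 5 classes.

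**Figure D3:**
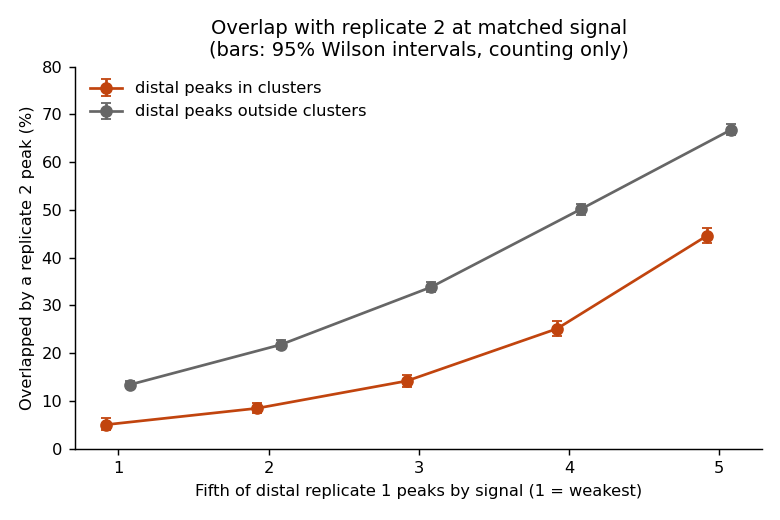
Share of distal replicate 1 peaks overlapped by a replicate 2 peak (vertical, percent) in 5 classes of replicate 1 signal (horizontal, weakest to strongest), for peaks in clusters (red) and outside them (grey), with 95% Wilson intervals for counting only. In the strongest class the shares are 44.6% and 66.8%, and the red points lie below the grey ones in every class.

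The share, pooled over the peaks of all clusters in a class, also differed by size. It was 26.2% in clusters of 5 peaks, 24.8% in those of 6 to 9, 19.7% in those of 10 to 19 and 13.0% (11.3 to 14.9) in the 50 clusters of 20 or more peaks. At least 1 replicate 2 peak lay in 82% (69.2 to 90.2) of clusters with 20 or more peaks and in 70.3% (66.6 to 73.7) of those with 5, with overlapping intervals. Across the 1752 clusters, Spearman's rho between the numbers of peaks in the 2 libraries was 0.25, and between summed signal and replicate 2 peaks it was 0.44. Between the number of replicate 1 peaks and the percent of them overlapped in each cluster, rho was -0.067. Many clusters tied in this last rho, with 633 at exactly 5 peaks and 534 at no overlapped peak. It therefore does not show that the share was alike across sizes. All these values are descriptions, since a longer span gives room for more peaks of either library.

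Of the 100 clusters with the highest sums, 8 had no replicate 2 peak. Besides those at Pnliprp1 and at Pnlip, they lay at Fbln5 (fibulin 5, an elastic fibre protein; rank 42, 26 peaks), Fyn (a kinase of the Src family; rank 59, 20 peaks) and Mknk1 (a kinase of the translation factor eIF4E; rank 73, 22 peaks). The rest were at Tead1 (a factor of the Hippo pathway; rank 88, 21 peaks), at Klk1 and its kallikrein neighbours (rank 93, 18 peaks) and at Slc9a9 (a sodium and proton exchanger; rank 94, 21 peaks). At Fbln5, Mknk1, Slc9a9 and Klk1, as at Pnlip, the longer replicate 2 list was empty too. These clusters lay at 3 enzyme loci of the acinar list and 5 loci outside it. The clusters with the most replicate 2 peaks among the 100 were at Fmod and Btg2 with 22, Acvr1b and Irf2bpl with 21 each, and Midn and Zfp36l1 with 20 each. Of these, distal peaks numbered 20, 14, 14, 5 and 12, so most of those at Midn lay near transcript starts.

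**Figure D4:**
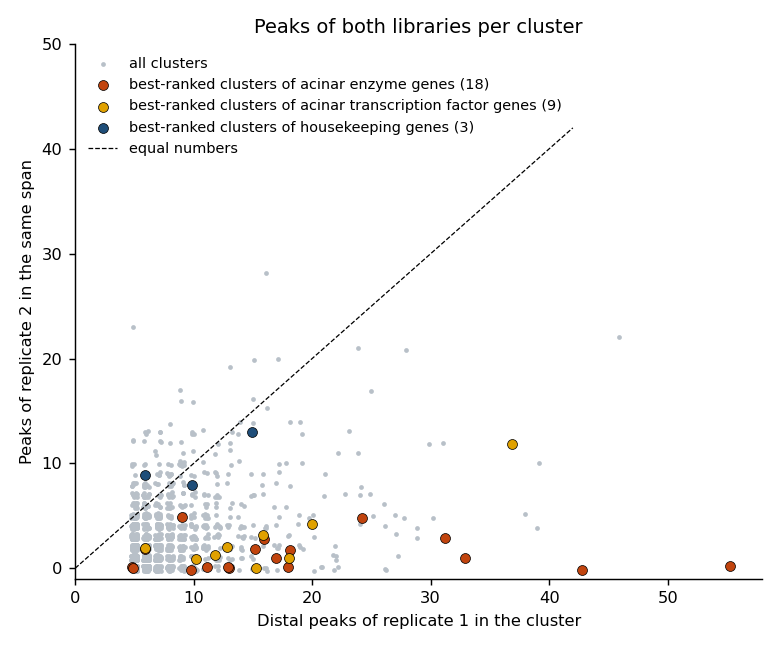
Distal peaks of replicate 1 (horizontal) and all peaks of replicate 2 in the same span (vertical) for each of the 1752 clusters, with small random shifts so that points do not hide each other, and the best-ranked clusters of 3 gene lists in colour. The 18 acinar enzyme clusters lie at 0 to 5 replicate 2 peaks, whereas the 3 housekeeping clusters lie at 8 to 13.

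Genes were linked to a cluster when their body overlapped its span. Clusters with no such protein-coding gene were given the one with the nearest transcript start. Where a list gene had more than 1 cluster, the values given for that gene are those of its best-ranked cluster. A cluster can span other genes too, so its counts are not of the list gene alone. In 1219 clusters (69.6%) a gene lay inside, and the others were a median of 33.0 kb from the nearest start. The 1821 linked genes were 8.30% of all protein-coding genes. These genes had a promoter peak in 86.8% of cases in replicate 1 and 78.5% in replicate 2, above the backgrounds given above in both libraries.

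Of the 20 gene lists, the 2 acinar ones had clusters most often. Of the 30 enzyme genes 21 had a cluster in replicate 1, against the background of 8.30%, and 0 had one in replicate 2, where the same rule gave a background of 4.67%. Since replicate 1 defined the clusters and the list was chosen with earlier results known, the first count is a description. The 21 genes shared 19 clusters with 350 peaks, of which 14 (4%) were overlapped by a replicate 2 peak, and 10 of the 19 had no replicate 2 peak at all. Their ranks ran from 2 to 1385 and 9 were among the 100 highest.

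Enzyme clusters beyond those already described covered proteases, lipases and other secreted proteins. Ctrb1 (chymotrypsinogen B) with Bcar1 had 17 peaks, a sum of 50.2 and 1 replicate 2 peak. Cel (carboxyl ester lipase) lay in a cluster of 24 peaks with a sum of 48.8 and 5 replicate 2 peaks. Sycn (syncollin, a zymogen granule protein) had 15 peaks and 2 replicate 2 peaks. Sums were between 27.0 and 29.4 at Cpa1 (a carboxypeptidase A), at Clps (colipase, the cofactor of lipase) and at Cela1, with 0, 3 and 5 replicate 2 peaks. The sums were lower still, 7.001 to 17.5, at Pla2g1b, Prss2, Rnase1, Cpb1, Try4 and Zg16, of which Pla2g1b alone had replicate 2 peaks, 2 in number.

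The 9 enzyme genes without a cluster were Ctrl, Prss1, Prss3, Try5, Amy2a1, Gp2, Spink1, Reg1 and Reg2. Trypsinogen, amylase, kallikrein and elastase genes have close copies in the genome. Peaks at them are uncertain where reads could be placed at more than 1 copy.

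Of the 10 genes of acinar transcription factors 9 had a cluster in replicate 1, all but Creb3l2. Their 12 clusters held 166 peaks, of which 17 (10.2%) were overlapped. Rbpjl (the pancreatic partner of PTF1A) shared a cluster with Matn4 and Sdc4. It had 20 peaks, a sum of 38.9 and 4 replicate 2 peaks. Within 20 kb of Rbpjl itself lay 13 distal peaks of replicate 1. The cluster of Bhlha15 (MIST1), Lmtk2 and Tecpr1 had 18 peaks, a sum of 32.8 and 1 replicate 2 peak. Mecom had 16, a sum of 32.3 and 3. Nr5a2, a nuclear receptor, had 12 peaks and 1 replicate 2 peak. Ptf1a itself had 15 peaks, a sum of 20.2 and none. Creb3l1, Gata4 and Nr0b2 had 13, 10 and 6 peaks against 2, 1 and 2 in replicate 2.

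Xbp1, a factor of secretory cells that responds to unfolded proteins, differed from the rest of its list. Its cluster of 37 peaks, shared with Ccdc117, had a sum of 46.1, and replicate 2 had 12 peaks there, 8 of the cluster's peaks being overlapped. It was the only gene of this list with a cluster in replicate 2 as well.

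Endoderm factors, which specify the gut and its glands, had a cluster for 9 of 16 genes in replicate 1 and for 0 in replicate 2. The 14 clusters held 142 peaks, of which 7 (4.93%) were overlapped. Foxa3 led with 25 peaks, a sum of 35.6 and 7 replicate 2 peaks. Foxa2 followed, with 14 peaks, 27.2 and 1 in the best-ranked of its 3 clusters. Onecut1 had 12 peaks and Gata6 7, each with 1 replicate 2 peak. Foxa1 had 17 peaks but a sum of only 9.19, since its strongest peak had a signal of 1.30. Prox1 had 9 peaks, and the best-ranked cluster given to Sox9 lay 350 kb from its start. Hnf4a, Hnf4g, Onecut2, Pdx1, Sox17, Mnx1 and Hhex had none.

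The epithelial and duct, islet and secretory pathway lists were covered to different extents. Of 20 epithelial and duct genes 7 (35%) had a cluster, against the background of 8.30%, among them Muc1, Krt19 and Krt18, and 24.4% of the peaks in these were overlapped by replicate 2. Of 21 islet genes 2 (9.52%) had one, Nkx2-2 among them, which is near the background, and Ins1, Ins2, Gcg and Sst did not. Of 20 genes of the secretory pathway 3 did: Pdia2, a protein disulfide isomerase of the pancreas, with 14 peaks, Ern1 and Edem1.

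**Figure D5:**
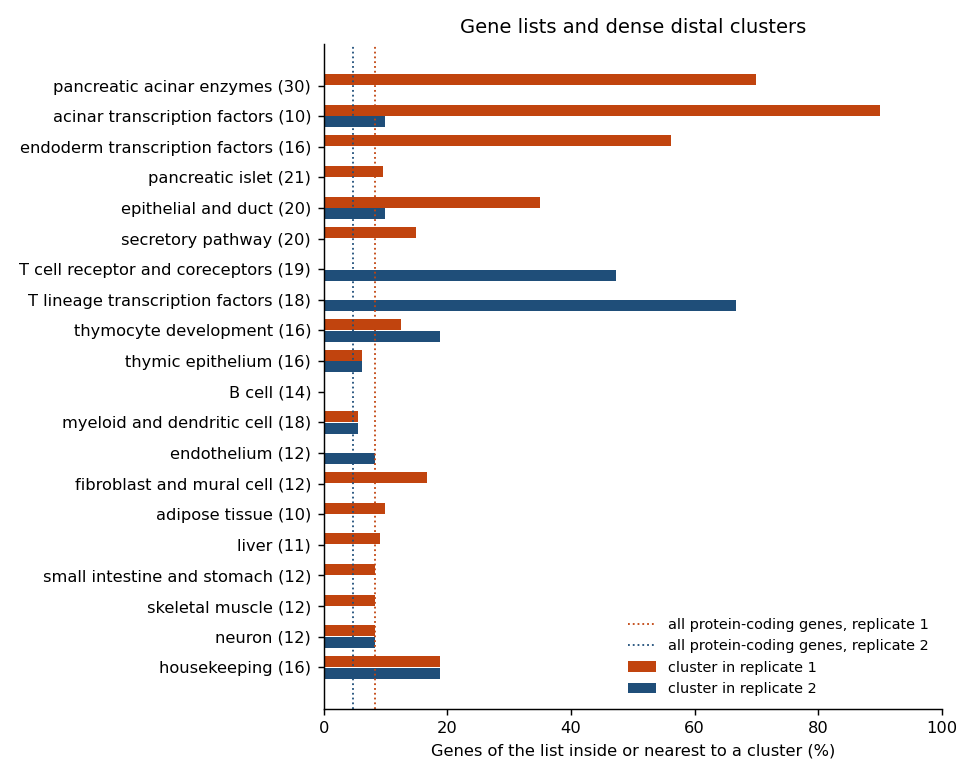
Percent of the genes of each list (horizontal; number of genes in brackets) that lay inside or nearest to a dense distal cluster of replicate 1 (red) or of replicate 2 under the same rule (blue), with dotted lines for all protein-coding genes. The replicate 1 bars are longest for acinar transcription factors, acinar enzymes and endoderm factors, where replicate 2 reaches at most 10%, and absent for the T cell receptor and T lineage factor lists.

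Genes of the T cell receptor and T lineage factor lists had no cluster in the library labelled replicate 1. Of 19 T cell receptor and coreceptor genes 0 had one there and 9 had one in replicate 2, and of 18 T lineage factors the counts were 0 and 12. The shares over all genes were 8.30% in replicate 1 and 4.67% in replicate 2, so the counts of 9 and 12 were far above the background of their library, while a count of 0 in lists this short is near that of replicate 1. Distal peaks within 20 kb showed the difference gene by gene. Tcf7, the factor of T cell commitment whose cluster had rank 1 in replicate 2 with 101 peaks, had 6 against 71. Cd8b1 and Cd8a, whose joint cluster had rank 4 in replicate 2 with 61 peaks, had 0 each against 41 and 20. Bcl11b had 2 against 24 and Ets1 3 against 24, while Rora, a receptor gene with a very long body, had 27 against 26.

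The 2 other thymus lists were near the background of 8.30% in the library labelled replicate 1, at 12.5% and 6.25%. Notch1, the receptor that commits precursors to the T lineage and acts in many other tissues, had 12 peaks and 6 replicate 2 peaks. Its target Hes1 had 12 peaks and 8. Prss16, a serine protease of thymic epithelium, was nearest to a cluster of 6 peaks, 4 of which were overlapped. They were 2 of 16 thymocyte development genes and 1 of 16 thymic epithelium genes. Most lists of other cells were near the background of 8.30% too, given how few genes each holds. Genes of B cells (0 of 14) and endothelium (0 of 12) had no cluster, and 1 or 2 genes of the others did: Itgam of 18 myeloid genes, Lipe of 10 adipose, Ttr of 11 liver, Lgr5 of 12 intestine and stomach, Myog of 12 muscle and Rbfox3 of 12 neuron genes, and Col1a1 and Dcn of 12 fibroblast genes. Whether tissue other than thymus contributed to the library labelled replicate 1 was not tested.

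Housekeeping genes gave 3 examples of clusters that both libraries had. Actb (beta actin) had 6 peaks and 9 replicate 2 peaks, and the cluster given to Ywhaz had 10 and 8. Of 16 genes 3 had a cluster in each library, and they were the same 3. Of the 31 replicate 1 peaks in these 3 clusters 64.5% were overlapped, against 4% at the acinar enzymes. Clusters that both libraries had varied widely in this share. Among the 100 highest, those that overlapped a replicate 2 cluster ran from 5.56% at Celsr1 to 100% at Ctc1.

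The same rule applied to replicate 2 gave 950 clusters from 34595 distal peaks. Of the 1752 replicate 1 clusters 296 (16.9%) overlapped one of these, and 295 of the 950 (31.1%) overlapped a replicate 1 cluster. Among the 100 highest of replicate 1 it was 40. Genes with a cluster in both libraries numbered 383, or 21.03% of the 1821 and 37.3% of the 1026 genes of replicate 2. Ptma was among them, with rank 1 in replicate 1 and rank 3 in replicate 2, as were Fmod with Btg2, with ranks 5 and 8. The lower overlap of cluster peaks held in the other direction too: 31.4% of the peaks in replicate 2 clusters were overlapped by replicate 1, against 53.6% of its other distal peaks and a background of 49.1%.

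Cluster peaks lay in introns in 52.8% of cases, between genes in 39.2% and in exons in 8.08%, close to the 51.1%, 42.2% and 6.63% of other distal peaks. They were a little wider, with a median of 205 bp against 180 bp. A footprint was found in 79.8% (79.2 to 80.5) of them against 86.6% (86.3 to 87.0) of other distal peaks. Per kb of peak there were 10.6 footprints against 12.2.

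Sequence matches were counted on both strands in windows of 200 bp centred on each peak. The difference between cluster peaks and other distal peaks was largest for CTCF, the insulator protein: 2.88% (2.61 to 3.17) of cluster peaks held AGGTGGCAG or AGGGGGCGC, against 5.36% (5.14 to 5.58) of the others. Within the clusters the CTCF share was 8.38% in peaks that replicate 2 also had and 1.26% in those it did not. Outside the clusters it was 2.42% (2.24 to 2.62) in peaks that replicate 2 did not have. That was also below the 5.36% of all peaks outside, so this direction was not particular to clusters. Matches that went the other way were KLF/SP (GGGCGG), at 8.93% (8.46 to 9.42) against 7.40% (7.14 to 7.66), NR5A, at 6.11% (5.72 to 6.53) against 5.24% (5.02 to 5.47), AP-1 (TGAGTCA or TGACTCA), at 5.13% (4.77 to 5.51) against 4.54% (4.34 to 4.75), and the E-box CAGGTG, at 26.6% (25.8 to 27.3) against 24.8% (24.4 to 25.2). NR5A matches were in 6.95% (6.48 to 7.45) of cluster peaks without a replicate 2 peak and in 3.27% of those with one. They were in 6.58% (6.28 to 6.90) of other distal peaks without a replicate 2 peak, so among peaks of replicate 1 alone the intervals in and outside clusters overlap.

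GATA and FOXA matches were somewhat less frequent in cluster peaks than in other distal peaks. GATA was at 9.53% (9.05 to 10.04) against 10.54% (10.24 to 10.85), and FOXA (TGTTTAC or TATTTAC) at 5.94% (5.56 to 6.36) against 6.74% (6.49 to 6.99). For RUNX (TGTGGTT or TGCGGTT) the shares were 5.07% (4.72 to 5.46) and 5.42% (5.20 to 5.65), with overlapping intervals. An E-box (either of those above, or CATCTG) within 25 bases of an RBPJ match GTGGGAA, a spacing searched for with other values in view, was in 1.49% (1.30 to 1.71) and 1.41% (1.30 to 1.54). The intervals for that pair overlap.

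Some shares lay further apart between the clusters of the 2 libraries. RUNX matches were in 5.07% of peaks in replicate 1 clusters and 9.06% of those in replicate 2 clusters, ETS matches (ACAGGAAG or ACCGGAAG) in 2.85% and 7.90%, and KLF/SP matches in 8.93% and 12.2%. In the opposite direction stood HNF4 (CAAAGTCCA or CAAAGTTCA) with 0.869% and 0.340%, FOXA with 5.94% and 3.49%, NR5A with 6.11% and 3.56%, and GATA with 9.53% and 6.55%. Base composition was close, at 52.2% GC in replicate 1 cluster peaks and 53.8% in replicate 2 cluster peaks, and 49.96% in the other distal peaks of replicate 1.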

How the data were processed

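The authors deposited, per library, 2 peak lists, a footprint list and a table of false discovery rates, on mm10 per the labels. The deposited signal of each peak (column 7) was used as given. Its values were whole multiples of 0.00784 in replicate 1 and 0.00771 in replicate 2 (within 0.05 steps in 100% of peaks). The deposited footprint score was 0.01 in every row and was not used. The deposited p-value column of the tables is a false discovery rate, with highest values of 0.0499 and 0.0500. The aligner, callers, thresholds and scaling were not given in the sources used here. Per the labels the libraries are replicates, but they share a donor identifier, so whether they come from separate mice is unknown.

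The shorter list of each library was used, and peaks close to or inside one another were not merged. Transcript starts (132666) and 21951 protein-coding genes came from GENCODE vM21, and sequence from RefSeq GRCm38.p6. Intervals are 95% Wilson intervals. Further copies were sought with blastn 2.17.0. Python 3.11.15, NumPy 2.4.6, pandas 2.3.3, SciPy 1.17.1, Matplotlib 3.10.9 and bedtools 2.31.1 were used. Clustering was tested on simulated data, and 193 of 193 clusters were recovered.

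The clusters, the 20 gene lists (315 genes) and the 20 motifs were chosen with earlier results of these data known. Named were the 20 clusters of highest sum, the 5 with the most peaks, up to 5 of the 100 highest without a replicate 2 peak and up to 5 with the most, and up to 8 genes per list. The genes Tead1, Klk1 and Slc9a9, further list members and the printed peaks were named after their values were seen. Not all list members and motifs are reported here.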

Additional observations from a re-analysis of the deposited data

How the results depend on the processing

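Every value below is of 1 library, so leaving out a replicate would leave nothing to compare. No paired analysis was possible because there is 1 group and no test. Of 59 alternatives 22 stayed close to the reported value and 37 moved; those for the acinar and T cell counts were chosen after seeing the data. The 1752 clusters became 982 with a gap of 5 kb, 2663 with 25 kb, 2966 with at least 4 peaks, 550 with at least 8, 3982 from the longer lists and 539 from the stronger 50% of peaks. The share of cluster peaks overlapped by replicate 2 (22.7%) became 18.0% with a gap of 5 kb, 27.7% with 25 kb, 24.5% with at least 4 peaks, 19.6% with at least 8, 25.2% with distal meaning over 500 bp, 20.96% over 2500 bp, 24.5% with protein-coding starts alone and 19.6% when 50% of the peak had to be covered. In each of these 8 settings, and with the longer lists and the stronger peaks, it was below the share outside the clusters (ratio 0.519 to 0.768). Clusters that overlapped a replicate 2 cluster (16.9%) became 9.47% and 30.8% with gaps of 5 and 25 kb, 20.2% and 10.4% with at least 4 and 8 peaks, 19.7% and 13.1% at 500 and 2500 bp, 18.9% with protein-coding starts, 21.1% with the longer lists and 12.4% with the stronger 50%. Clusters with a replicate 2 peak (75.4%) became, in the same order, 60.8% and 86.3%, 72.5% and 82%, and 79.2% and 70.6%, then 77.7% with the longer lists, 69.9% with the stronger 50% and 72.7% counting distal replicate 2 peaks alone. Of the 20 highest clusters 2 stayed among the 20 highest by mean signal per peak, 12 by number of peaks and 16 by signal summed over widths. Acinar enzyme genes with a cluster numbered 15 to 25 over the alternatives. T cell receptor and coreceptor genes with a cluster numbered 1 with at least 4 peaks (Cd5), 1 with protein-coding starts alone (Cd247) and 1 with the longer lists (Cd5), and 0 otherwise. The depth per library is unknown, so a missing replicate 2 peak does not show closed chromatin.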

Other observations

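Of the 1821 linked genes 197 had more than 1 cluster. Prdm16, a factor of brown fat and other tissues, had 5 clusters with 31 peaks and 0 replicate 2 peaks, whereas Bcor, a gene of a transcriptional corepressor, had 5 with 42 peaks and 27 replicate 2 peaks. Vegfa (the angiogenic growth factor) and Azin1 (antizyme inhibitor) had 4 clusters each, with 9 and 8 replicate 2 peaks. Tent5c had 3 clusters with 67 peaks and 6 replicate 2 peaks. Fgfr2 had 8, but its annotated body of 2961 kb takes in regions far from its start. The read-through model Gm20388, of 4435 kb, had 18 for the same reason.

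The clusters were densest on chromosome 11, with 13.1 per 10 Mb, and on chromosome 19, with 10.6. On the X chromosome there were 16, or 0.936 per 10 Mb, and 9.42% of its distal peaks lay in clusters. No correction for the single X chromosome of males was made.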
